A study of Mus musculus with 4 samples.

Results

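The mitosis and spindle genes are a set of 50 genes whose products carry a cell through mitosis, from the kinases that start it to the proteins that split the cell. They were chosen by gene symbol, and a gene read by several probe sets was represented by the brightest one, judged by its average log2 intensity across the 4 arrays. A probe set with a single gene symbol was found for 49 of the 50 genes, out of 18193 genes so named on the array. The remaining one, Ccnb1, was not analysed here. The 49 genes were read by 114 probe sets, and 14 of them by 1 probe set only.

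The samples were mouse bone marrow LSK cells, which the labels give as free of lineage markers and positive for c-kit and Sca-1, a compartment that contains the blood-forming stem cells. All were transduced with a retrovirus and grown in medium with fetal calf serum and 4 cytokines (SCF, IL-11, IL-3 and the ligand of Flt3). Cells given β-catenin, through which Wnt signals reach transcription, were profiled at day 3 and, under the name DKmix, after culture for 50 and 300 days. The control was cells transduced with enhanced green fluorescent protein (eGFP) and profiled at day 3. Each of these 4 groups was 1 array. The labels do not say whether the 3 β-catenin samples were 1 culture, how many mice or clones they came from, or which promoter drove β-catenin. With no replicates there was no test, every ratio is between single arrays, and the number of arrays limits the precision.

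Mitosis is driven by cyclin-dependent kinase 1 bound to A- and B-type cyclins, aided by the Polo-like and Aurora kinases. Kinetochores join chromosomes to spindle microtubules, and a checkpoint holds the anaphase-promoting complex inactive until all are attached. That complex then destroys cyclin B and securin, separase opens the cohesin rings, and the spindle midzone directs cytokinesis. Most of these transcripts accumulate late in the cell cycle, so in a cell mixture their level is widely read as a measure of dividing cells. In bulk RNA, fewer dividing cells and less of these RNAs per dividing cell cannot be told apart.

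Values are MAS5 signal intensities on a linear scale, and the deposited values had a 2% trimmed mean of 150 on each array. For ratios and for ranking the arrays of a gene, intensities below 48.3, which is the median of all values, were raised to it, and "at least" marks a ratio in which one side was raised. That value is called the floor. All members were above the floor on at least 1 array: 48 at β-catenin day 3, 46 at DKmix day 50, 49 at DKmix day 300 and 48 at eGFP day 3. From the differences between 2 probe sets of the same gene, the SD of a log2 ratio was 0.63 to 0.92 per probe set, depending on the comparison. It is the SD of those differences divided by the square root of 2, so the differences themselves had a larger SD. Only genes above the floor by both probe sets entered. The SD per probe set is the only error measure here, and it leaves out differences between cultures.

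The arrays differed in RNA quality controls and in cell type markers. Gapdh, read by probe sets at both ends of its transcript, had a 3′ over 5′ ratio of 1.18 at β-catenin day 3, 4.96 at DKmix day 50, 1.06 at DKmix day 300 and 4.14 at eGFP day 3. The same ratio of Actb was 1.32, 3.41, 1.20 and 1.83 on the arrays in that order. DKmix day 50 was highest in both controls, and eGFP day 3 was close to it by Gapdh but not by Actb. The 8 mast cell markers summed to 3625, 172300, 74596 and 592 on the arrays in this order, and the 8 neutrophil markers to 4488, 325, 163 and 68559. The 8 monocyte, macrophage and dendritic cell markers summed to 22496, 339, 339 and 19194, and the 7 stem and progenitor markers found to 7176, 10789, 6441 and 3407. Flt3, a progenitor receptor, was under the floor on all 4 arrays, and Kit, which encodes c-kit, read 82.9, 3460, 1263 and 55.8. Of the other markers in this list, Cd34 read 804, 2068.5, 4293 and 112, and Sox4 read 900, 65.4, 48.7 and 131. Myb read 4149, 4461, 740 and 2607, Slamf1 87.6, 62.9, 39 and 5.6, and Cd48 1105, 656, 34 and 450. Of the 7, 6 were above the floor at β-catenin day 3 and 5 at eGFP day 3. The low Kit and the neutrophil, monocyte, macrophage and dendritic cell sums at day 3 did not match purely lineage-negative, c-kit-positive cells. Ly6a (Sca-1) was not analysed here. The part that these differences had in the results below was not tested, except where a value is given.

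The mitosis and spindle genes were low at day 50 of culture and, on the deposited scale, close to the β-catenin day 3 level at day 300. Of the 49 genes, 38 had a lower floored value on the DKmix day 50 array than on any other, against 17.2% of all genes. Without the floor it was 39, with Cdc25c added at 7.9. For 19 of them the day 50 value was at least 2-fold below each of the other 3 arrays, against 3.71% of all genes. These 19 covered most steps of mitosis: the kinases Plk1, Aurka, Bub1 and Bub1b, the anaphase genes Cdc20, Ube2c and Espl1, the kinesins Kif20a, Kif23 and Kif4, the centromere and kinetochore genes Cenpa, Ndc80 and Nuf2, the condensins Ncapd2 and Ncapg, and also Birc5, Top2a, Tpx2 and Mki67. The eGFP day 3 array was lowest for 0 members, against 14.3% of all genes, and Ect2, lowest there at 45.3, was below the floor on that array and on day 50. β-catenin day 3 was lowest for 7 members, against 13.7% of all genes, and day 300 for 2, against 17.4%. The highest value was on eGFP day 3 for 24 members, against 24.6% of all genes, on day 300 for 20, against 21.8%, on β-catenin day 3 for 4, against 22.6%, and on day 50 for 1, against 30.9%.

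**Figure D1:**
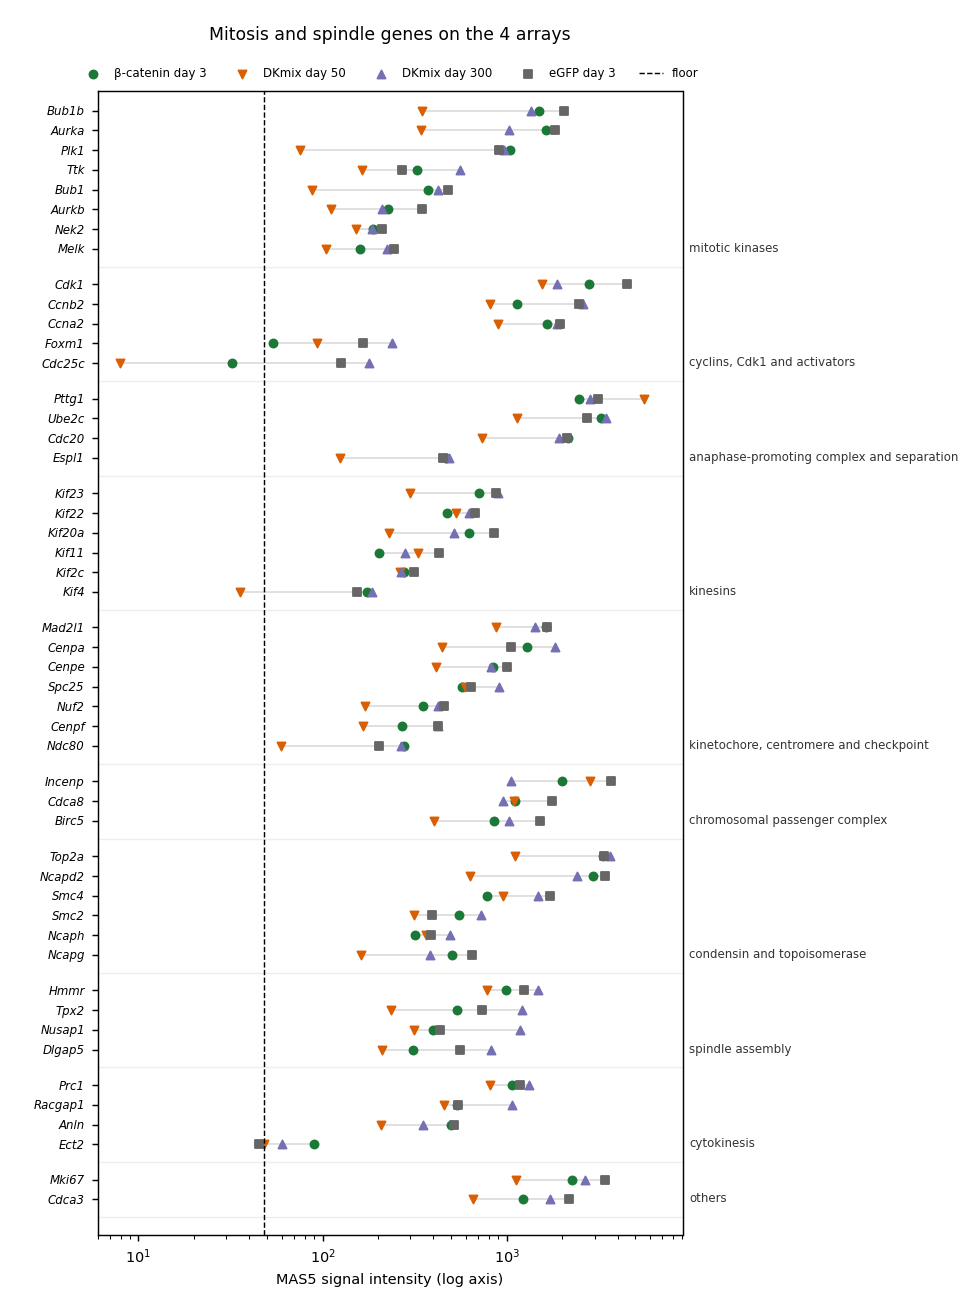
MAS5 signal intensity (log axis) of the 49 genes, 1 row per gene and 1 symbol per array, grouped by role and ordered by mean level within a role; the dashed line is the floor of 48.3. The day 50 symbols lie to the left of the other arrays for 39 of the 49 genes, of which Cdc25c lies below the floor on β-catenin day 3 too, with Plk1 at 75.5 on day 50 and between 906 and 1042 on the other arrays, and Pttg1 as the one gene with its highest value on day 50.

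The mitotic kinases stood lowest of the role groups at day 50, relative to each gene's own mean. Plk1, the Polo-like kinase that drives centrosome maturation and mitotic exit, read 1042 at β-catenin day 3, 75.5 at DKmix day 50 and 968 at DKmix day 300, and 906 at eGFP day 3. Its day 50 value was 13.8-fold below β-catenin day 3 and 12-fold below eGFP day 3, the largest differences among the members. The other 3 arrays lay within 1.15-fold of each other. Bub1b, the checkpoint protein BubR1, read 1503, 348 and 1360 along the time course and 2038 with eGFP. Bub1, its partner kinase at the kinetochore, read 373, 87.8 and 423 along the time course and 480 with eGFP. Aurka, the spindle pole kinase, read 1634, 343 and 1024 along the time course and 1831 with eGFP, and was still 1.60-fold below β-catenin day 3 at day 300. Aurkb, Ttk, Nek2 and Melk were also lowest at day 50 by their brightest probe sets, with smaller differences than these. The second-brightest probe set of Aurkb was lowest at day 300 instead, at 192, 147 and 81.8 along the time course and 252 with eGFP. Over the 8 kinases, the median log2 ratio of day 50 was -1.56 to β-catenin day 3 and -2.02 to eGFP day 3.

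The cyclins, Cdk1 and their activators included 3 genes that were also low at β-catenin day 3. Ccnb2, a B-type cyclin, read 1136 at β-catenin day 3, 807 at day 50 and 2583 at day 300, and 2475 with eGFP. Foxm1, the transcription factor of late cell cycle genes, read 53.6, 93.2 and 240 along the time course and 166 with eGFP. Cdc25c, the phosphatase that activates Cdk1, was under the floor at β-catenin day 3 and day 50 and read 180 at day 300 and 126 with eGFP. For these 3 genes, then, both β-catenin day 3 and day 50 were below day 300 and eGFP day 3. Cdk1 itself read 2803, 1549 and 1878 along the time course and 4472 with eGFP, and its day 300 value was 1.21-fold above day 50, short of 2-fold.

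Among the genes of anaphase onset, Espl1, the protease separase, read 465, 124 and 487 along the time course and 453 with eGFP. Ube2c, the ubiquitin-conjugating enzyme of the anaphase-promoting complex, and Cdc20, its activator, had the same shape by their brightest probe sets. They read 1143 and 735 on day 50 and between 1919 and 3468 on the other arrays. The second-brightest probe set of Cdc20 read 1670, 803 and 778 along the time course and 1813 with eGFP. By that probe set Cdc20 did not rise again at day 300. Pttg1, or securin, the inhibitor of separase, was the only member with its highest value at day 50: 2472, 5576 and 2849 along the time course and 3134 with eGFP. Its second-brightest probe set read 420, 249 and 579 along the time course and 357 with eGFP, so the 2 probe sets of Pttg1 gave opposite directions.

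Among the kinesins, Kif4, a chromosome-bound kinesin, read 174, 35.7 (below the floor) and 185 along the time course and 154 with eGFP. Kif23, a midzone kinesin needed for cytokinesis, read 705, 297 and 893 along the time course and 871 with eGFP, and Kif20a was of the same kind. Kif11, the motor that pushes spindle poles apart, read 202, 328 and 281 along the time course and 431 with eGFP, so its lowest value was at β-catenin day 3. Its second-brightest probe set was lowest at day 50 instead, at 275, 188 and 303 along the time course and 218 with eGFP. Kif2c, a microtubule-depolymerising kinesin, and Kif22, a chromosome-bound one, differed by at most 1.20-fold and 1.41-fold between any pair of arrays by their brightest probe sets. Their second-brightest probe sets did not show this. Kif2c then read 439, 67.5 and 415 along the time course and 50.5 with eGFP, and Kif22 read 539, 164 and 608 along the time course and 554 with eGFP. For Kif11, Kif2c and Kif22 the pattern thus depended on the probe set.

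At the kinetochore and centromere, Ndc80, the microtubule-binding subunit, read 277, 59.2 and 268 along the time course and 203 with eGFP. Cenpa, the histone H3 variant that marks centromeres, read 1293, 444 and 1839 along the time course and 1048 with eGFP. Mad2l1, the checkpoint protein Mad2, differed less, at 1641, 871 and 1418 along the time course and 1661 with eGFP. Of the 7 genes in this group, 4 were at least 2-fold lower at day 50 than at β-catenin day 3, against 15.7% of all genes, and 5 than at eGFP day 3, against 15%. Spc25, a partner of Ndc80, was the one gene of the group that was not lower at day 50 than at β-catenin day 3, at 591 against 570, while its second-brightest probe set read 51.9 and 88.8 on the same arrays.

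Condensin and topoisomerase genes, which compact and untangle chromosomes, were low at day 50 in part. Ncapd2, a condensin I subunit, read 2941, 636 and 2414 along the time course and 3415 with eGFP. Top2a, topoisomerase II alpha, read 3334, 1104 and 3630 along the time course and 3371 with eGFP, with the other 3 arrays within 1.09-fold of each other. Smc4, the core ATPase shared by both condensins, read 783, 955 and 1482 along the time course and 1713 with eGFP by its brightest probe set, while its second-brightest gave 277, 119 and 1015 along the time course and 471 with eGFP. Ncaph, another condensin I subunit, lay between 316 and 492 on the 4 arrays by its brightest probe set, while its second-brightest gave 157, 167 and 1034 along the time course and 392 with eGFP.

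In the chromosomal passenger complex, which corrects faulty attachments, Birc5 (survivin) read 853, 401 and 1028 along the time course and 1515 with eGFP. Incenp, the scaffold of the complex, read 2004, 2832 and 1053 along the time course and 3698 with eGFP by its brightest probe set. By its second-brightest probe set Incenp read 468, 89.8 and 758 along the time course and 343 with eGFP. The 2 Incenp probe sets thus gave opposite directions of day 300 over day 50, at log2 ratios of -1.43 and 3.08, and no direction is given for this gene. Cdca8 (borealin), which targets the complex, read 1107, 1098 and 950 along the time course and 1758 with eGFP by its brightest probe set. Its second-brightest read 1669, 443 and 1399 along the time course and 1721 with eGFP, lowest at day 50.

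The spindle assembly genes were the role group that stood highest at day 300 relative to its own mean. Tpx2, which activates Aurka on the spindle, read 534, 236 and 1206 along the time course and 736 with eGFP. Nusap1, a microtubule-bundling protein, read 396, 313 and 1185 along the time course and 433 with eGFP, and was the only member at least 2-fold above each other array at day 300, against 3.98% of all genes. Its second probe set was close to the floor on all arrays. Dlgap5, a spindle stabiliser, read 312, 211 and 819 along the time course and 559 with eGFP. Hmmr, a spindle-associated hyaluronan receptor, read 992, 778 and 1483 along the time course and 1235 with eGFP. All 4 genes were highest at day 300 by their brightest probe sets. The second-brightest ones of Tpx2 and Dlgap5 were highest with eGFP instead.

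Among the cytokinesis genes, Prc1, the microtubule crosslinker of the midzone, read 1067, 809 and 1319 along the time course and 1182 with eGFP. Anln, which scaffolds the contractile ring, read 501, 208 and 352 along the time course and 516 with eGFP. By the brightest probe sets, Anln was the only one of the 4 at least 2-fold lower at day 50 than at either day 3 array. Ect2 was close to the floor throughout, between 45.3 and 89.4. The second-brightest probe set of Prc1 read 642, 255 and 691 along the time course and 403 with eGFP. That of Racgap1 was lowest at β-catenin day 3 instead, at 82.8, 218 and 226 along the time course and 243 with eGFP. Of the proliferation marker Mki67, which coats mitotic chromosomes, the values were 2258, 1122 and 2644 along the time course and 3435 with eGFP. Cdca3, which targets a mitotic inhibitor for destruction, read 1231, 652 and 1713 along the time course and 2165 with eGFP.

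**Figure D2:**
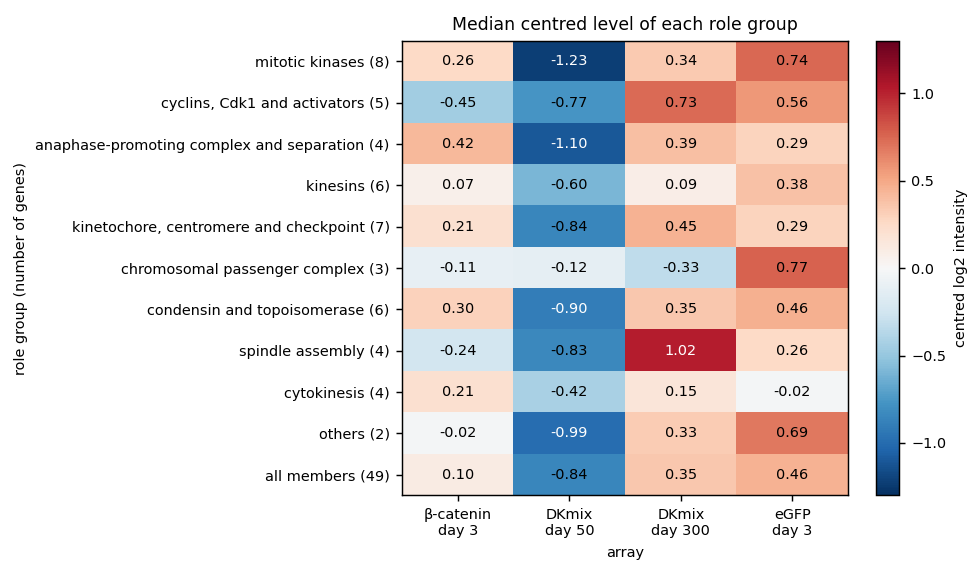
Median over each role group of the log2 intensity minus the gene's own mean over the 4 arrays (colour and printed value), with arrays as columns and role groups as rows, and the number of genes in brackets. By the brightest probe sets, all role groups but the chromosomal passenger complex, where Incenp and Cdca8 differ between probe sets, had their lowest median on day 50, from -0.42 for cytokinesis to -1.23 for the mitotic kinases, and the spindle assembly group reached 1.02 on day 300.

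Most of these genes share short sequences near their start sites. Mitotic gene promoters are known for the cell cycle genes homology region (CHR), which reads TTTGAA or in a variant form TTCGAA and is bound by MuvB complexes, and for CCAAT boxes bound by NF-Y. RefSeq promoter windows on the build GRCm38.p6, from 250 bases before to 50 after a start, were matched for 40 of the 49 genes (42 windows). A CHR of either form was present on either strand in 78.6% of the members' windows, against 19.2% of all 32851 windows and 15.1% of windows of genes on the array. CCAAT was present in 76.2%, against 37.4% of all windows, and at 2 or more places in 50%, against 11.7%. Both kinds were present in 71.4% of members' windows and in 7.52% of all windows. The other mitotic genes described below held a CHR in 44.5% of their windows, CCAAT in 54.5% and both in 25.5%. DNA replication genes held a CHR in 22.5%, CCAAT in 55% and both in 12.5%. CHR forms cannot overlap each other, and CCAAT can share 1 end base with a CHR.

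The promoter windows of 5 members follow, as those with the largest day 300 over day 50 ratio among genes that held both kinds of sequence, and capitals mark each CHR and CCAAT match (ATTGG where CCAAT lies on the other strand). They are chr7:122159185-122159484 (plus strand) for Plk1, chr2:127831810-127832109 (minus strand) for Bub1, chr5:30666636-30666935 (plus strand) for Cenpa, chr15:102296043-102296342 (plus strand) for Espl1 and chr2:118597961-118598260 (plus strand) for Bub1b, each written 5′ to 3′ in the direction of the gene.
Plk1: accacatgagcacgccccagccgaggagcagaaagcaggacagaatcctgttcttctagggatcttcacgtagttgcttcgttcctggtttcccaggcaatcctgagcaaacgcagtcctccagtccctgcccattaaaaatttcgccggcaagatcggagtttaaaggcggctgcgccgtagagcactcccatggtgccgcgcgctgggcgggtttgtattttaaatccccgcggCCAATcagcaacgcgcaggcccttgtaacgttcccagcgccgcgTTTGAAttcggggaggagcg
Bub1: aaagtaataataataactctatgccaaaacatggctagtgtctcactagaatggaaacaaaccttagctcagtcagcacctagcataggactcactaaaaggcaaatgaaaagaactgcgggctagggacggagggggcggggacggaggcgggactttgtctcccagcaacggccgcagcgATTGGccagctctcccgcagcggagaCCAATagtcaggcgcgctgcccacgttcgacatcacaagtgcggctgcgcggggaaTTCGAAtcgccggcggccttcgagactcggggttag
Cenpa: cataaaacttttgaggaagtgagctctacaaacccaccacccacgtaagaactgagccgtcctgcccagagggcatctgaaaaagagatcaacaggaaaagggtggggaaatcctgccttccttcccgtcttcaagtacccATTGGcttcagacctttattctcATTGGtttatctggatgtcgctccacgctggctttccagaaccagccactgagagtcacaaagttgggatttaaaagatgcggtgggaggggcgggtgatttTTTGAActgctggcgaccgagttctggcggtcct
Espl1: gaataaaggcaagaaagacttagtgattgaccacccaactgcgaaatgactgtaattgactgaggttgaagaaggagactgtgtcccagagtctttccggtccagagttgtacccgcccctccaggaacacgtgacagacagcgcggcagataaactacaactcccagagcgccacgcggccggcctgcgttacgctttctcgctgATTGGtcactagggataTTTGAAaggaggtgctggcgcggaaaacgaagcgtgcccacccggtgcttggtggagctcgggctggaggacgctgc
Bub1b: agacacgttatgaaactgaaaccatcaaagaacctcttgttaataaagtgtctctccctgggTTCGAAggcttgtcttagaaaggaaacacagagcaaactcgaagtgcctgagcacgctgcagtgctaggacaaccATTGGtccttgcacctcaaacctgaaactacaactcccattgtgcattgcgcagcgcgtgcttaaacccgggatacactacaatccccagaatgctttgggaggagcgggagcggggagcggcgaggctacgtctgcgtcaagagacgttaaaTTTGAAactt
In Plk1, CCAAT begins 14 bases before the start and TTTGAA 30 after it. In Bub1, TTCGAA begins 14 bases after the start, with CCAAT matches 42 and 68 bases before it. Cenpa has TTTGAA 16 bases after the start, Espl1 has it 27 before, and Bub1b has it 40 after. The 28 genes with both kinds of sequence had a median day 300 over day 50 log2 ratio of 1.39, and the 12 other matched genes one of 0.87, with ranges of -0.22 to 3.68 and -0.97 to 2.18 that overlap widely. A match is a run of letters and not a measured binding site.

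Day 50 of the culture was first set against the eGFP control at day 3, 2 arrays that were close in the 3′ to 5′ ratio of Gapdh (4.96 and 4.14) but not of Actb (3.41 and 1.83). Of 48 measured members, 30 were at least 2-fold lower at day 50, against 15% of all genes, and 0 were higher, against 15.6%. The median log2 ratio was -1.33, against 0.03 for all genes, and 47 of the 48 were below 0. Plk1 (12-fold), Bub1b (5.86-fold), Bub1 (5.46-fold), Ncapd2 (5.37-fold) and Aurka (5.34-fold) were farthest below. All 8 neutrophil markers were also at least 2-fold lower at day 50 in this pair, and 7 of the 8 mast cell markers were higher.

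Against the β-catenin cells at day 3, 22 of 48 measured members were at least 2-fold lower at day 50, against 15.7% of all genes, and Pttg1 was the 1 higher, against 16.1%. The median log2 ratio was -0.92, against 0.07 for all genes. Plk1 was again farthest below (13.8-fold), followed by Aurka (4.76-fold), Ndc80 (4.68-fold), Ncapd2 (4.63-fold) and Bub1b (4.32-fold). The 3′ to 5′ ratio of Gapdh differed in this pair, at 4.96 for day 50 and 1.18 for β-catenin day 3. On a scale set on the bacterial hybridisation controls, which moved the median of all genes to -0.82, the members' median was -1.96. On that scale 40 members were lower, against 42.7% of all genes.

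Day 300 and β-catenin day 3 had low 3′ to 5′ ratios of both Gapdh (1.06 and 1.18) and Actb (1.20 and 1.32). The members were near their early level: 7 of 49 were at least 2-fold higher, against 14% of all genes, and 0 were lower, against 14.4%. The median log2 ratio was 0.20, against -0.08 for all genes. The 7 were Foxm1 (4.47-fold), Cdc25c (at least 3.72-fold), Nusap1 (2.99-fold), Dlgap5 (2.63-fold), Ccnb2 (2.27-fold), Tpx2 (2.26-fold) and Racgap1 (2.01-fold), of which the last is a midzone GTPase regulator. On the hybridisation control scale the direction turned, with a members' median of -0.79 and a median of all genes of -0.87. On that scale 2 members were higher and 18 lower, against 4.46% and 44.3% of all genes. Taken relative to all genes, the members' median was thus 0.28 higher on the deposited scale and 0.08 higher on that one.

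Relative to both day 3 arrays, 20 of 49 members at day 300 were above both, 14 lay between them and 15 were below both. For all genes, 29.9% were above both and 27.5% below both. By their brightest probe sets, the spindle assembly genes Tpx2, Nusap1, Dlgap5 and Hmmr were all above both. Aurka, Aurkb, Bub1b and Nek2 among the kinases were below both, Nek2 narrowly, at 185 against 188 and 211. The second-brightest probe sets of Hmmr and Aurkb gave the same positions. That of Bub1b was above both, at 899.5 against 625 and 694. Those of Tpx2 (189) and Dlgap5 (77.8) were below eGFP day 3 (211 and 78.2). At day 50, 39 members were below both day 3 arrays, against 27.1% of all genes.

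Between the cultures, day 300 exceeded day 50 for 31 of 49 members at least 2-fold, against 15% of all genes, and 1 was lower, against 15.9%. The 1 lower was Incenp by its brightest probe set, and its second-brightest gave the opposite direction. The median log2 ratio was 1.24, against -0.14 for all genes, and 1.34 on the hybridisation control scale. Plk1 was 12.8-fold higher at day 300, Tpx2 5.10-fold, Bub1 4.81-fold, Ndc80 4.52-fold and Cenpa 4.14-fold. The mast cell markers went the other way, with 5 of 8 at least 2-fold lower at day 300 and 1 higher, and the Gapdh ratio was 1.06 at day 300 and 4.96 at day 50.

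**Figure D3:**
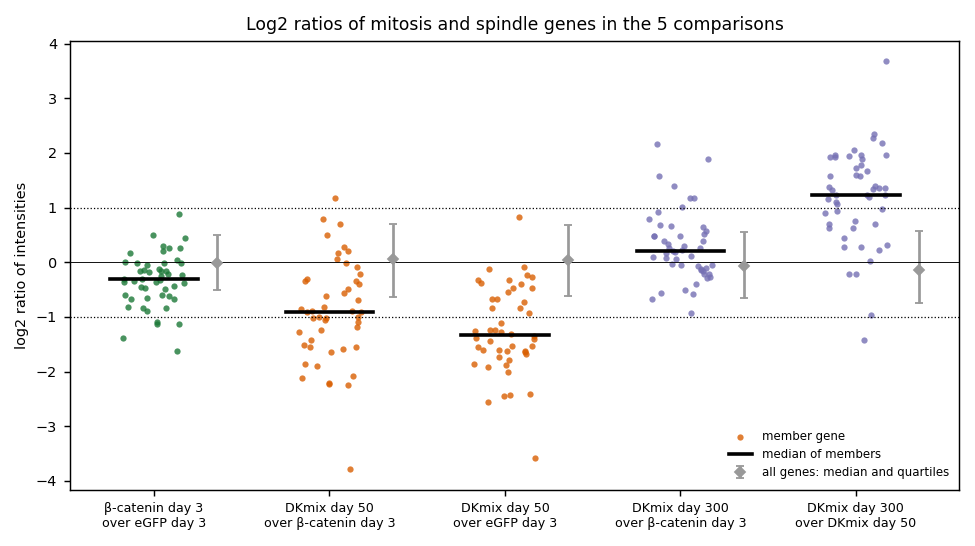
Log2 ratio of each member (points) in the 5 comparisons, with the members' median as a black bar, dotted lines at 2-fold, and the median and quartiles of all genes as a grey diamond with bars. The members' medians were -0.31, -0.92, -1.33, 0.20 and 1.24 from left to right, and those of all genes lay between -0.14 and 0.07.

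At day 3, β-catenin and eGFP cells differed little in these genes. None of the 49 members was at least 2-fold higher with β-catenin, against 10.2% of all genes, and 5 were lower, near the 9.41% of all genes. The 5 were Foxm1 (3.09-fold), Cdc25c (at least 2.60-fold), Smc4 (2.19-fold), Ccnb2 (2.18-fold) and Kif11 (2.13-fold). By the second-brightest probe sets the log2 ratios were within 2-fold, at -0.61 for Foxm1, -0.81 for Cdc25c, -0.77 for Smc4 and 0.33 for Kif11. Ccnb2 had 1 probe set only. The median log2 ratio was -0.31, with 39 of 49 below 0, and on the hybridisation control scale it was 0.22, with the median of all genes at 0.46. Relative to all genes, the members' median was -0.29 on the deposited scale and -0.24 on that one.

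Second probe sets shared the direction of the brightest for 29 of 33 genes in day 50 over eGFP, but less often elsewhere. It was 21 of 31 for day 50 over β-catenin, 22 of 31 for day 300 over β-catenin and 21 of 30 for day 300 over day 50. For β-catenin over eGFP at day 3 it was only 20 of 34. The size of the ratio often differed too. Counted one by one, 55 of 100 measured probe sets of members were at least 2-fold lower at day 50 than at eGFP day 3, against 13.7% of all named probe sets, and 1 was higher. For day 300 over day 50, 61 of 100 were higher, against 15.2%, and 1 was lower. Where the brightest probe set passed 2-fold at day 50 against eGFP and a second one was measured, the second had the same direction for 15 of 16 genes, with Cenpa as the exception. For day 300 over day 50 it was 13 of 17, with Cdc20, Cenpa, Incenp and Nusap1 as exceptions. The second-brightest probe sets alone gave a median of 1.35 over 30 genes for day 300 over day 50.

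**Figure D4:**
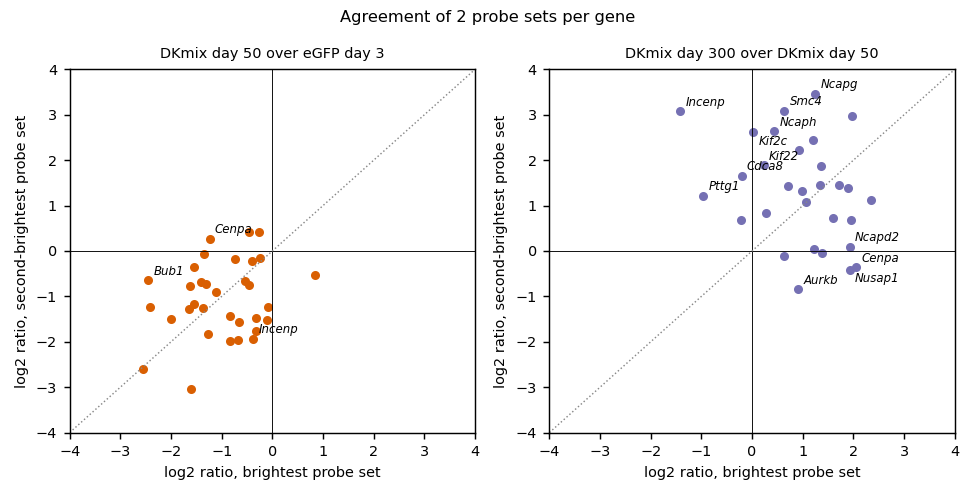
Log2 ratio by the brightest (x axis) and the second-brightest probe set (y axis) of each member with both measured, for DKmix day 50 over eGFP day 3 (33 genes) and DKmix day 300 over DKmix day 50 (30 genes); genes that differ by more than 1.5 are named and the dotted line marks equality. Most points share a sign, but they scatter widely around equality, and Incenp lies at -1.43 and 3.08.

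Another 111 genes were listed by roles in mitosis, among them Kif1c, Kif3a, Kif13a and Dctn1, which are not specific to it. Of this list a smaller share followed. Against eGFP day 3, 41 of 106 measured were at least 2-fold lower at day 50 and 3 were higher (median -0.62), against 15% and 15.6% of all genes. Against β-catenin day 3 it was 32 of 105 lower and 7 higher (median -0.65), against 15.7% and 16.1%. Day 300 exceeded day 50 for 41 of 108, and 10 were lower (median 0.49), against 15% and 15.9%. Cenpi, an inner kinetochore subunit, was at least 6.12-fold and Troap, a spindle protein, 6.42-fold lower at day 50 than at β-catenin day 3. Esco1 was farthest the other way in that comparison, at a log2 ratio of 2.62, followed by Anapc10 and Anapc13. Spag5, or astrin, was 7.17-fold and Knl1, the kinetochore scaffold, 5.87-fold higher at day 300 than at day 50. Dctn1 was farthest the other way there, at a log2 ratio of -1.81.

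Of 13 genes of the anaphase-promoting complex itself, 0 were at least 2-fold lower at day 50 than at eGFP day 3, against 15% of all genes, and Anapc13 was the 1 higher (3638 against 1780), against 15.6%. Against β-catenin day 3, 2 were lower and 2 higher at day 50, near the 15.7% and 16.1% of all genes. Of 15 cohesin and condensin genes outside the set, 4 were higher and 2 lower at day 300 than at β-catenin day 3, and 9 were within 2-fold. Of all genes, 14% were higher and 14.4% lower in that comparison. Rad21, the cohesin subunit that separase cuts, was 7.40-fold above β-catenin day 3 and 9.75-fold above day 50, while Stag1, another cohesin subunit, was 3.28-fold below day 50. Mybl2, the MuvB partner that switches on late cell cycle genes, read 51.3 at day 300 and 263 at β-catenin day 3, 5.12-fold lower, and Pkmyt1, a kinase that restrains Cdk1, was 3.47-fold lower.

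Of 41 DNA replication genes, 22 were at least 2-fold lower at day 50 than at eGFP day 3, against 15% of all genes, and 24 than at β-catenin day 3, against 15.7% (medians -1.02 and -1.25). At day 300 against β-catenin day 3, the array on which 21 of the 41 were highest, 19 were lower, against 14.4% of all genes, and 0 higher (median -0.93), where 0 of 49 mitosis and spindle genes were lower. Day 300 exceeded day 50 for 10 of 39 replication genes, against 15% of all genes, and 5 were lower, against 15.9% (median 0.22). Mcm5, a subunit of the replicative helicase, read 626 at day 300 and 3058 at β-catenin day 3, and Pold1, a replicative polymerase, 298 and 1717. The difference between the lists was not tested, since both lists rest on the same single arrays. The remaining 22 were within 2-fold of β-catenin day 3 at day 300, among them Tk1, thymidine kinase, at 593, 36.1 (below the floor) and 510 along the time course and 424 with eGFP.

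**Figure D5:**
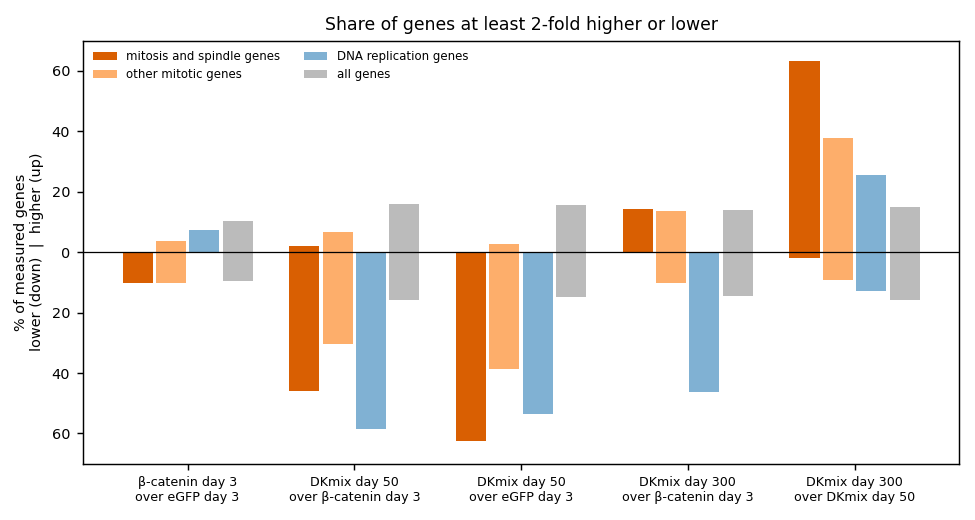
Percentage of measured genes at least 2-fold higher (bars up) or lower (bars down) in each comparison, for the mitosis and spindle genes, the other mitotic genes, the DNA replication genes and all genes. At day 300 over β-catenin day 3 the replication genes had 19 of 41 lower and the mitosis and spindle genes 0 of 49, whereas both lists had long lower bars at day 50.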

How the data were processed

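The files held 1 table of deposited signal intensities, 1 value per probe set and array, made by the authors; the submitters' processing notes name MAS5. Its version and settings are not given in the sources used here. Of 45101 probe sets, 34945 had 1 gene symbol in the platform annotation, 932 had several, 9160 had none and 64 were controls, and only the first kind was used. Values were floored at 48.3 (percentile 50 of all values), and genes at the floor on both arrays were not measured in that comparison. A ratio of at least 2-fold was counted. Python 3.11.15, pandas 2.3.3 and numpy 2.4.6 were used, and the counting was tested on simulated data.

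Each of the 5 comparisons had 1 array per group, so no p-value was computed. The members, lists and rules were chosen with earlier results of these data known. Members named are, per comparison, the 5 highest and 5 lowest past 2-fold, and per role group the brightest and the most variable. Other listed genes are the 3 highest and 3 lowest, and those named outside these rules were chosen after their values were seen. The alternatives were quantile normalization, a scale set on bacterial hybridisation controls, floors at percentile 25 and 75, a 3-fold threshold, and averaging a gene's probe sets. The second-brightest probe set, and the alternatives for the counts of genes lowest at day 50, were added after seeing the data.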

Additional observations from a re-analysis of the deposited data

Results flagged for a closer look

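Tpx2, which activates Aurka on the spindle, was at least 2-fold lower at DKmix day 50 and at least 2-fold higher at DKmix day 300 than at β-catenin day 3. The log2 ratios were -1.18 at day 50 and 1.18 at day 300, a difference of 2.35 between the times. The difference was not tested, and both ratios share the β-catenin day 3 array. The second-brightest probe set of Tpx2 had log2 ratios of -0.43 at day 50 and 0.69 at day 300.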

How the results depend on the processing

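No paired analysis was possible because each group held 1 array. Under the 6 alternatives that give a median, the members' medians stayed negative for both day 50 comparisons and positive for day 300 over day 50. With a scale on the hybridisation controls, the median was 0.22 for β-catenin over eGFP, opposite in sign. There 2 members were higher and 2 lower, against 25.3% and 5.84% of all genes on that scale. For day 50 over β-catenin it was -1.96, with 0 higher and 40 lower, against 4.42% and 42.7%. The median was -1.80 for day 50 over eGFP. For day 300 over β-catenin it was -0.79, opposite in sign, with 2 higher and 18 lower, against 4.46% and 44.3%. With probe sets averaged per gene, the β-catenin over eGFP median was -0.12 (2 higher), day 50 over β-catenin had 0 higher, day 300 over β-catenin 2 lower and day 300 over day 50 0 lower. Quantile normalization gave 0 higher for day 50 over β-catenin and 1 lower for day 300 over β-catenin. The floor at percentile 75 left 3 lower for β-catenin over eGFP. At 3-fold, which by construction counts fewer genes, there was 1 lower for β-catenin over eGFP, 0 higher and 10 lower for day 50 over β-catenin, 17 lower for day 50 over eGFP, 2 higher for day 300 over β-catenin, 17 higher and 0 lower for day 300 over day 50, and 8 genes below each other array at day 50. With the second-brightest probe set the β-catenin over eGFP median was -0.13. Otherwise the cause of these changes was not tested.

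With probe sets averaged per gene, the sign turned for Anln at day 50 over β-catenin (0.0184), Tpx2 at day 50 over eGFP (0.17) and Incenp at day 300 over day 50 (1.26). Among members past 2-fold, the second-brightest probe set turned the sign for Kif11 in β-catenin over eGFP (0.33) and for Cenpa in day 50 over eGFP (0.27). In day 50 over β-catenin it did so for Cenpa (0.15) and Pttg1 (-0.76). In day 300 over day 50 it did so for Cdc20 (-0.05), Cenpa (-0.35), Incenp (3.08) and Nusap1 (-0.42). Dim second probe sets limit some of these checks, though those of Cdc20 and Incenp were not dim, and 1 array per group limits every value.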
